A study of Mus musculus with 12 samples.

Results

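The 10 genes described here are the repressors of the circadian clock and the output genes that the clock drives: Nr1d1, Nr1d2, Per1, Per2, Per3, Cry1, Cry2, Dbp, Tef and Bhlhe40. All probe sets of the array that carried exactly 1 of these symbols were taken, which gave 17 of 22690 probe sets and 10 of 12393 named genes. Of the 17, 15 were bright enough to be tested, and 1 probe set each of Per2 and Per3 lay below the intensity filter and was not.

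RNA came from mouse embryonic fibroblasts in which PPARγ was knocked out (PPARgamma KO MEFs). PPARγ is a nuclear receptor, and fat cells do not form without it. Into these knockout cells either wild-type receptor (wtPPARgamma) or a mutant was introduced. The sample labels call it mutPPARgamma and the series text S273A, which replaces a serine that is a phosphorylation site with alanine. All cells were differentiated for 6 days in culture. Cells with the wild-type receptor were left without a named ligand, or given 1 µM rosiglitazone, a thiazolidinedione and full agonist, or 1 µM MRL24, a ligand that is not a thiazolidinedione, for 24 h, and the S273A cells received no named ligand. Each of the 4 groups had 3 arrays. The labels name no vehicle, no separate cultures, no clock time of harvest and no synchronisation of the cells, so the spread behind each p-value is that of these arrays and may be technical. Each receptor form was, as far as the labels say, in 1 cell population, so the effect of the substitution and population differences cannot be told apart. In bulk RNA, fewer cells that express a gene and less RNA per cell cannot be told apart either.

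The clock is a transcriptional feedback loop. CLOCK and BMAL1 (gene Arntl) bind E-box elements and switch on the Per and Cry genes, whose proteins return to the nucleus and shut CLOCK and BMAL1 off. A second loop runs through the nuclear receptors REV-ERBα (Nr1d1) and REV-ERBβ (Nr1d2), which occupy elements shared with the ROR receptors and repress Arntl. DBP and TEF, transcription factors of the PAR bZIP family, carry the rhythm to genes with D-box elements, and DEC1 (Bhlhe40) represses at E-boxes. In fat cells REV-ERBα is also known as a gene whose expression goes up during differentiation and as a target of PPARγ agonists.

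Promoter sequence is shown for the 3 genes with an available entry that were called in S273A cells, and for Per3, whose promoter holds the element that DBP and TEF bind. RefSeq promoter windows (GRCm38.p6) were at hand for 8 of the 10 genes, in 10 windows, but not for Per2 and Bhlhe40. Only bases outside the annotated gene are printed, 5′ to 3′ on the gene's own strand. Capitals mark the motifs found: an E-box variant read as AACGTG in Nr1d1 and Cry2, and the D-box TTATGTAA in Per3. The printed Dbp stretch held none of the motifs searched.
Nr1d1, minus strand of chr11:98775378-98775627: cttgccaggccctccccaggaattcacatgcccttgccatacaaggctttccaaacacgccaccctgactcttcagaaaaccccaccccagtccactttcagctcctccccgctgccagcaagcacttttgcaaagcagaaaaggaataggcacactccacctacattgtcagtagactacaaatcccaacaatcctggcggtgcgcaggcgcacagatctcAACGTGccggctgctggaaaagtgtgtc
Dbp, plus strand of chr7:45704997-45705099: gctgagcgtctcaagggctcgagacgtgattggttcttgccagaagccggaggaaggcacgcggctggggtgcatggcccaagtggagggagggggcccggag
Cry2, minus strand of chr2:92434086-92434319: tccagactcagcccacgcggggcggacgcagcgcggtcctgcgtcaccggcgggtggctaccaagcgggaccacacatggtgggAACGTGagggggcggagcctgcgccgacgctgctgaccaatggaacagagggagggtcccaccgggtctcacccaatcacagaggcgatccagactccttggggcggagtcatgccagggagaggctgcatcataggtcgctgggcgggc
Per3, minus strand of chr4:151044708-151044915: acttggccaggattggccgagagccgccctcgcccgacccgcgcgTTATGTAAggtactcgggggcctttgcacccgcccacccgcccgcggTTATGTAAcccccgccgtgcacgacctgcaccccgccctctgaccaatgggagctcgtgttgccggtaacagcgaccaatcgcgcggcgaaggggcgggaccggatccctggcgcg
Motifs were searched on both strands over 250 bases before each start site, and none of them contains another. The E-box variant CACGTT, which reads AACGTG on the other strand, began 28 bases before the start of Nr1d1, 166 bases before that of Cry2 and 79 bases before that of Cry1, and was present in 3.85% of 32851 mouse windows of the same length. The E-box CACGTG lay before the starts of Cry1 (60 bases) and Tef (127 bases in the window at the start of the gene), against 6.02% of windows. For Per1 it lay 166 bases before a start site (chr11:69098949) that is inside the annotated gene, which begins at 69095108. The other Per1 window held none of the motifs. The D-box TTATGTAA occurred at 205 and at 158 bases before the start of Per3, while 0.931% of windows held it or TTACGTAA. The REV-ERB and ROR core site AGGTCA lay 77 bases before the start of Nr1d2 (14% of windows). It also lay 137 bases before the Per1 start site that is inside the gene. The cAMP response element TGACGTCA, which 1.55% of windows held, was not found in the members' windows. A match describes these letters and does not show binding.

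Array medians lay between 297 and 315 intensity units. One array, wild-type replicate 2, lay far from the rest, at -24.96 on a first principal component that held 26.1% of the variance, against -7.15 to 11.7 in the others. Leaving it out gave the same number of called clock probe sets in all 6 comparisons made. Some fat cell markers differed strongly between the groups: 6 of the 8 listed had a probe set, 4 of these lay above the filter, and Adipoq and Cidec lay below it. The summed fat cell marker level was 11486 to 13296 in wild-type cells, 12248 to 13094 in S273A cells, 29355 to 29838 with rosiglitazone and 18393 to 18610 with MRL24. None of these 4 tested markers passed the test in S273A cells. Of them 2 (Fabp4 and Lpl) rose with each ligand, and Retn and Cebpa gave no call. The sums were mostly Fabp4, with means of 9509 in wild-type, 9701 in S273A, 25153 with rosiglitazone and 15339 with MRL24. The untested Adipoq read 37.3 to 62.4 in wild-type and 90.9 to 106 in S273A cells, without overlap. With rosiglitazone Adipoq read 134 to 143, and with MRL24 46.5 to 91.3. Cidec overlapped between wild-type and S273A cells. Of 5 fibroblast markers, 4 fell in S273A cells (Col1a1, Col1a2, Pdgfra and Thy1), where the summed level was 53139 to 56837 against 56166 to 63511. With rosiglitazone Pdgfra and Thy1 fell by 0.37 and 0.30 (adjusted p = 0.000881 and 0.00281) at a summed level of 59924 to 63486. With MRL24 Pdgfra fell by 0.23 (adjusted p = 0.0312, kept in 17 of 23 alternatives) at a summed level of 62539 to 64908, although a second Pdgfra probe set was higher by 0.39. The macrophage marker Cd68 rose by 0.63 on the log2 scale in S273A cells, and the 5 macrophage markers summed to 2865 to 3010 against 2187 to 2721, with Ptprc and Lyz2 below the filter. No endothelial or skeletal muscle marker passed the test against wild-type cells. The part of cell composition in the clock gene differences was not tested.

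The clock genes did not move as a block. Nr1d1 rose in all 3 settings, with S273A, with rosiglitazone and with MRL24. In S273A cells Dbp also rose, while Cry2 and Bhlhe40 fell, and neither of these falls was seen as a called change with a ligand. Per1, Per2, Per3, Cry1 and Tef passed the test in none of the comparisons. The largest called rise was under 2-fold.

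**Figure D1:**
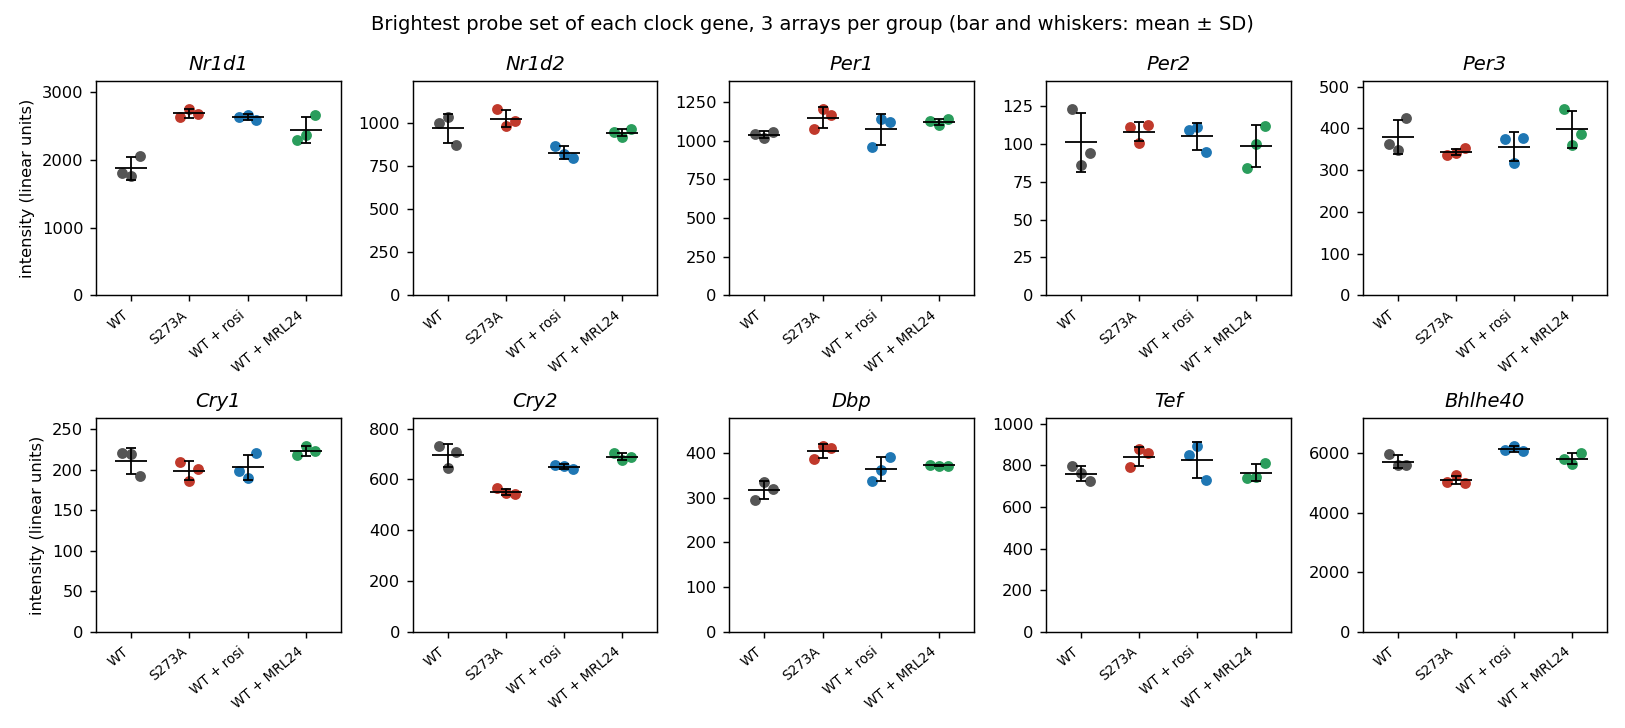
Intensity (linear units, each axis from 0) of the brightest probe set of the 10 clock genes on the 3 arrays of each group: wild-type (WT), S273A, wild-type with rosiglitazone (rosi) and wild-type with MRL24. Points are arrays and the bar with whiskers is mean ± SD. Nr1d1 lies above all wild-type arrays in the other groups, and Cry2 and Bhlhe40 are lowest in S273A cells.

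The REV-ERB receptors came first among the repressors. Nr1d1 (probe set 1426464_at, gene at chr11:98767932-98775377) read 1802, 1761 and 2067 intensity units on the 3 wild-type arrays and 2630, 2755 and 2684 on the S273A arrays. It read 2642, 2673 and 2586 with rosiglitazone and 2296, 2366 and 2666 with MRL24. Every S273A, rosiglitazone and MRL24 array was thus above every wild-type array. The group means were 1877 ± 166 (SD, n = 3) in wild-type, 2690 ± 62.5 in S273A, 2634 ± 44.3 with rosiglitazone and 2443 ± 197 with MRL24. On the log2(intensity + 16) scale, on which all differences are given, Nr1d1 rose with S273A by 0.52 (SE 0.07, 1.43-fold, limma adjusted p = 0.000148). With rosiglitazone it rose by 0.49 (SE 0.07, 1.40-fold, adjusted p = 0.000169), and with MRL24 by 0.38 (SE 0.07, 1.30-fold, adjusted p = 0.00431). Its calls held in all 24 alternative analyses of each comparison, with adjusted p up to 0.00366, 0.00271 and 0.0421. In order of level the groups ran wild-type, MRL24, rosiglitazone, S273A, and above wild-type no neighbours differed beyond their spread (adjusted p = 0.463 for rosiglitazone against MRL24 and 0.847 for rosiglitazone against S273A). Nr1d1 overlaps Thra on the opposite strand, and where its probes lie was not analysed here. The 3 comparisons share the wild-type arrays, so they are not independent of one another.

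Nr1d2 (chr14:18204056-18239106) had 2 probe sets, and they did not behave alike. The brighter one, 1416958_at, read 1000, 1034 and 874 in wild-type cells, 1081, 985 and 1011 in S273A cells, 868, 819.55 and 799 with rosiglitazone and 947.5, 919.9 and 963 with MRL24. All rosiglitazone arrays lay below all arrays of the other groups, although the highest rosiglitazone array was close to the lowest wild-type array. Against wild-type the difference with rosiglitazone was -0.22 (SE 0.07) and missed the threshold (adjusted p = 0.0591). Without wild-type replicate 2 it was -0.17 (adjusted p = 0.182). It passed without wild-type replicate 3 (-0.29, adjusted p = 0.0126), with the filter at the 50th percentile (0.0447) and with arrays scaled to the same median (0.0440). Rosiglitazone minus S273A gave -0.30 for this probe set (SE 0.07, adjusted p = 0.0114), a call lost without S273A replicate 1 (0.0562) or rosiglitazone replicate 3 (0.0540). In the mean of both Nr1d2 probe sets that difference was -0.14 (adjusted p = 0.445). With S273A and with MRL24 it differed from wild-type by 0.08 and -0.04 (adjusted p = 0.534 and 0.792).

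The dimmer Nr1d2 probe set, 1416959_at, pointed the other way. It read 114, 59.3 and 141.5 in wild-type cells, 142, 199 and 169 in S273A cells, 183, 174 and 156 with rosiglitazone and 215, 176 and 223 with MRL24. The wild-type arrays were the 3 lowest of the 12, although the highest of them (141.5) was close to the lowest S273A array (141.68). Wild-type replicate 2, the outlying array, was the lowest of all. The dimmer probe set rose with MRL24 by 0.93 (SE 0.21, adjusted p = 0.0160). Without wild-type replicate 2 that rise was 0.62 (adjusted p = 0.0433). The call was lost without MRL24 replicate 1 (0.0537) or 3 (0.0746), with no filter (0.0511) and in a fit to the 2 groups alone (0.0716). With S273A and rosiglitazone the differences of 0.67 and 0.69 missed the threshold (adjusted p = 0.0635 and 0.0515), but passed without wild-type replicate 3 (0.0143 and 0.0104). Without wild-type replicate 2 they were 0.36 and 0.38 (adjusted p = 0.198 and 0.185). The mean of both Nr1d2 probe sets was higher with S273A (0.38, adjusted p = 0.0344) and MRL24 (0.45, adjusted p = 0.0232), while the brighter probe set alone gave no call, and with rosiglitazone the mean differed from wild-type by 0.23 (adjusted p = 0.175). The direction read for Nr1d2 differed between its probe sets with rosiglitazone and with MRL24. Both REV-ERB genes belong to the set that the published study tied to this serine on these samples, so their values are not independent evidence of that set's direction.

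The PER proteins, the partners of CRY in the main repressor complex, showed no called change at the RNA level. Per1 (1449851_at, chr11:69095108-69109965), which also responds early to glucocorticoid and cAMP signals, read 1044, 1016 and 1058 in wild-type cells and 1076, 1206 and 1170 in S273A cells. It read 957, 1142 and 1122 with rosiglitazone and 1129, 1102 and 1141 with MRL24. The S273A and the MRL24 arrays all lay above the wild-type arrays, but by 0.14 (adjusted p = 0.240) and 0.11 (adjusted p = 0.327), and the rosiglitazone arrays overlapped the wild-type ones. Per2 (chr1:91415977-91459351) was dim, and its tested probe set 1417603_at ranged from 83.7 to 123 over the 12 arrays with every pair of groups overlapping. Its differences from wild-type were 0.10 with S273A, 0.06 with rosiglitazone and -0.03 with MRL24, each with SE 0.16. The 95% intervals were wide, -0.25 to 0.44 for S273A, -0.29 to 0.40 for rosiglitazone and -0.37 to 0.31 for MRL24. The untested Per2 probe set, 1417602_at, ranged from 65.5 to 103.

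Per3 (chr4:150997018-151044707) is a PER relative that the core loop can run without. Its brightest probe set, 1460662_at, read 362, 348 and 426 in wild-type cells, 337, 342 and 352 in S273A cells, 376, 316 and 377 with rosiglitazone and 446.5, 360.3 and 387 with MRL24. The MRL24 arrays all lay above the S273A arrays (0.20, adjusted p = 0.232), and no other pair of groups was separated. Against wild-type the differences were -0.13, -0.08 and 0.07 for S273A, rosiglitazone and MRL24 (adjusted p = 0.494, 0.666 and 0.711). Its second probe set, 1421087_at, ranged from 158 to 272 and differed by -0.10 to 0.09, and the untested 1421086_at, ranged from 13.9 to 67.3.

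Among the cryptochromes, the strongest repressors of CLOCK and BMAL1, Cry2 fell in S273A cells and Cry1 gave no call. Cry2 (1426383_at, chr2:92403646-92434085) read 733, 645 and 707 in wild-type cells and 565, 547 and 543 in S273A cells. With rosiglitazone it read 656, 654 and 641, and with MRL24 702, 674 and 689.6. The S273A arrays were the 3 lowest of the 12, with no overlap with any other group. The mean went from 695 ± 45.3 to 552 ± 11.6 (n = 3), so that Cry2 fell by 0.32 (SE 0.06, 1.25-fold, limma adjusted p = 0.00550). That call was lost in a fit to the 2 groups alone (0.0587) and held in the other 23 alternatives. With the ligands Cry2 differed from wild-type by -0.09 (adjusted p = 0.422) and -0.01 (adjusted p = 0.938). It was higher than in S273A cells by 0.23 with rosiglitazone (adjusted p = 0.0344) and by 0.31 with MRL24 (adjusted p = 0.00681). The first of these was lost in 9 of 24 alternatives: without any 1 of the S273A or rosiglitazone arrays (0.0577 to 0.101), without MRL24 replicate 2 (0.0513), with quantile normalization (0.0587) and with the same median (0.0567). In order of level, S273A lay below rosiglitazone, MRL24 and wild-type. Neighbours above S273A were not called (limma adjusted p = 0.616 and 0.938), although all rosiglitazone arrays lay below all MRL24 arrays. Cry1 (1433733_a_at, chr10:85131700-85185054) ranged from 186 to 229. Its differences from wild-type were -0.08, -0.05 and 0.08 (SE 0.10 each) for S273A, rosiglitazone and MRL24, and its MRL24 arrays lay above its S273A arrays (0.16, adjusted p = 0.359).

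Dbp, whose promoter and introns are read directly by CLOCK and BMAL1, was the output gene that rose. Its brighter probe set (1418174_at, gene at chr7:45705100-45710203) read 296, 335 and 319.9 in wild-type cells and 387, 416 and 410 in S273A cells. It read 338, 362 and 390.3 with rosiglitazone and 374, 371 and 370.25 with MRL24. Each of these 3 groups lay wholly above the wild-type arrays, the rosiglitazone group by a small margin. Dbp rose with S273A from 317 ± 20.0 to 404 ± 15.3 (n = 3), by 0.34 (SE 0.08, 1.26-fold, limma adjusted p = 0.0161). It missed the threshold without wild-type replicate 1 (0.0612), S273A replicate 2 (0.0648) or S273A replicate 3 (0.0563), and in a fit to the 2 groups alone (0.0795). With rosiglitazone, at 363 ± 26.2, the difference was 0.19 (adjusted p = 0.159). With MRL24, at 372 ± 1.73, it was 0.22 (adjusted p = 0.0932), which passed with array weights (0.0494), while the mean of both Dbp probe sets gave 0.08 (adjusted p = 0.502). In order of level wild-type came lowest, then rosiglitazone, MRL24 and S273A. No neighbours in that order were called (limma adjusted p = 0.159, 0.893 and 0.394). Even so, wild-type and rosiglitazone arrays did not overlap, nor did MRL24 and S273A arrays.

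The second Dbp probe set (1438211_s_at) read 277, 233 and 235 in wild-type cells and 289, 304 and 273.1 in S273A cells, which overlap. Its difference of 0.21 with S273A missed the threshold (adjusted p = 0.218), and the mean of both Dbp probe sets rose by 0.27 (adjusted p = 0.0221). With MRL24 it read 216, 255 and 239.5, which gave -0.06 against wild-type (adjusted p = 0.724). These arrays lay below all S273A arrays (-0.27, adjusted p = 0.0878), a difference that passed with quantile normalization (-0.32, adjusted p = 0.0409) and with arrays scaled to the same median (-0.32, adjusted p = 0.0484). With rosiglitazone it read 274, 271 and 269.8, a difference from wild-type of 0.13 (adjusted p = 0.460).

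Tef (chr15:81802673-81826863), the PAR bZIP relative of Dbp, gave no call with any of its 3 probe sets. The brightest, 1424175_at, read 799, 762 and 723 in wild-type cells, 790.3, 877 and 858 in S273A cells, 852, 895 and 731 with rosiglitazone and 742, 744 and 812 with MRL24, so that wild-type overlapped each other group. Its difference with S273A was 0.14 (adjusted p = 0.309). The second, 1450184_s_at, read 398 to 481 in wild-type and 487 to 514 in S273A cells, which did not overlap (0.18, adjusted p = 0.318). The dimmest, 1438033_at, ranged from 142 to 245 with no separation of the groups.

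Bhlhe40 (1418025_at, chr6:108660629-108666925), which encodes DEC1 and also answers hypoxia, fell in S273A cells. It read 5966, 5582 and 5586 in wild-type cells and 5020.1, 5249.9 and 4997 in S273A cells. With rosiglitazone it read 6093, 6245 and 6064, and with MRL24 5813, 5628 and 6001. The S273A arrays were again the 3 lowest, and the rosiglitazone arrays the 3 highest, of the 12. Bhlhe40 fell with S273A from 5711 ± 220.4 to 5089 ± 139.9 (n = 3), by 0.17 (SE 0.04, limma adjusted p = 0.0213). It missed the threshold without wild-type replicate 1 (0.0795), S273A replicate 1 (0.0640) or S273A replicate 3 (0.0779), in a fit to the 2 groups alone (0.124) and without the trend in the variance prior (0.0782). With rosiglitazone the difference from wild-type was 0.10 (adjusted p = 0.134) and with MRL24 0.03 (adjusted p = 0.737). Bhlhe40 was higher with rosiglitazone than in S273A cells by 0.27 (SE 0.04, adjusted p = 0.000486), in all 24 alternatives. With MRL24 it was higher by 0.19 (adjusted p = 0.00903), a call lost without MRL24 replicate 3 (0.0563). In order of level the groups ran S273A, wild-type, MRL24 and rosiglitazone. Neighbours above S273A were not called (limma adjusted p = 0.737 and 0.403), although all rosiglitazone arrays lay above all MRL24 arrays.

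**Figure D2:**
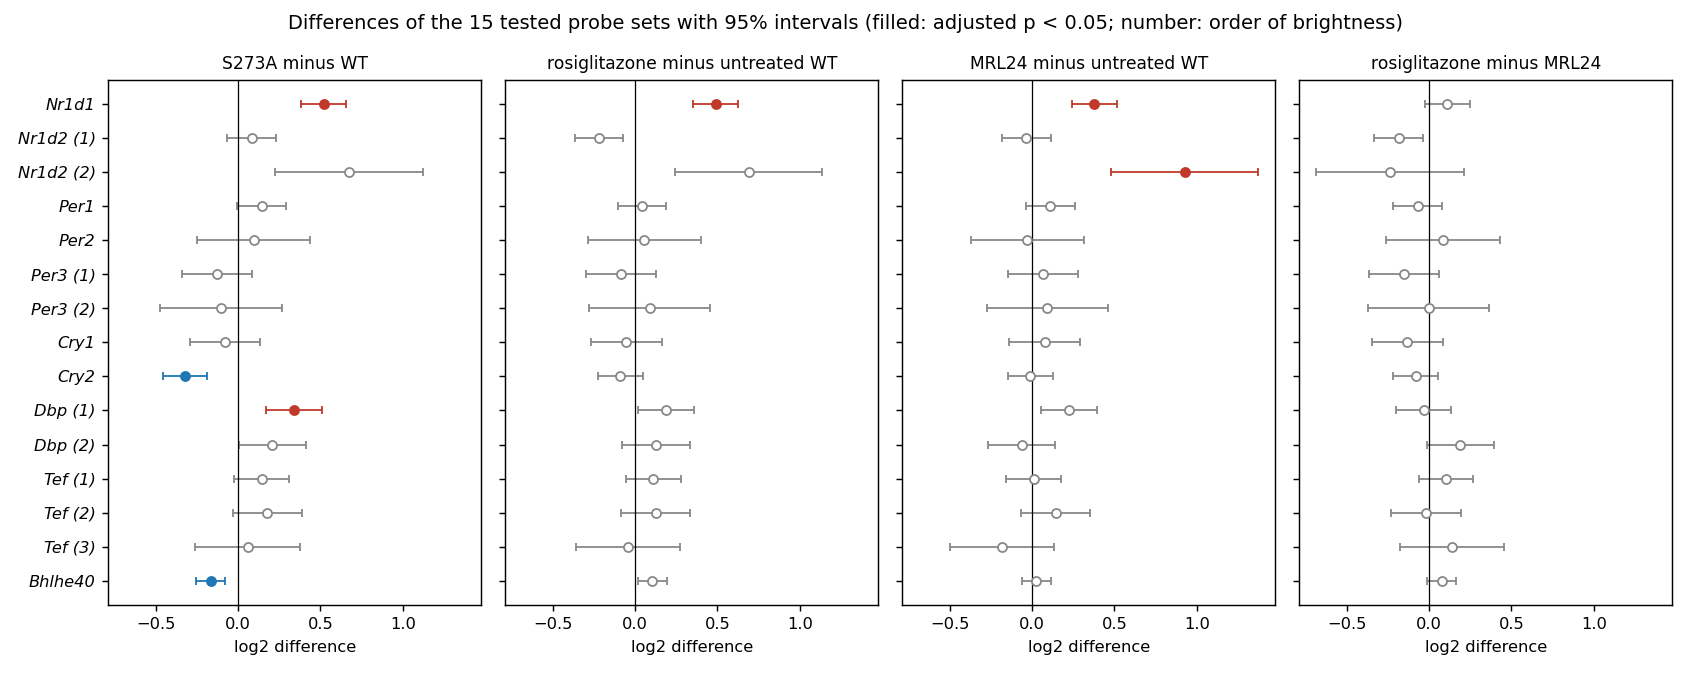
Log2 differences (x axis, log2(intensity + 16) scale) with 95% intervals for the 15 tested clock probe sets in 4 comparisons, numbered by brightness where a gene has several. Filled points passed adjusted p under 0.05, red for higher and blue for lower. S273A against wild-type holds 4 filled points, rosiglitazone 1, MRL24 2, and rosiglitazone against MRL24 none.

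Counted over the 15 tested probe sets, 4 changed with S273A, or 26.7%, where 7.71% of all 15838 probe sets were called. Of these 2 were higher (Nr1d1, Dbp) and 2 lower (Cry2, Bhlhe40), beside 2.58% and 5.13% of all probe sets. With rosiglitazone 1 changed, or 6.67%, against 9.24% of all probe sets, and it rose, as 5.03% did. With MRL24 2 changed, or 13.3%, against 8.44%, and both rose, as 5.76% did. The rosiglitazone share is no higher than the background. The members were chosen with earlier results of these data known. None of these shares therefore tests whether clock genes changed more often than other genes. Groups did not overlap for 7 of the 15 probe sets with S273A (23.2% of all probe sets), 5 with rosiglitazone (26.5%) and 4 with MRL24 (30.3%). The median difference over the 15 was 0.10, 0.09 and 0.07 for S273A, rosiglitazone and MRL24, beside -0.004, 0.004 and 0.02 over all probe sets tested.

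Rosiglitazone and MRL24, a thiazolidinedione and a ligand without that ring, were compared at the same dose and time, the only pair of compounds in the study. None of the 15 clock probe sets was called between them in limma's test, against 2.25% of all probe sets, and the same number came from every alternative. At an unadjusted p under 0.05 there was 1, the brighter Nr1d2 probe set, for which rosiglitazone minus MRL24 was -0.18 (95% interval -0.33 to -0.04, adjusted p = 0.207). Nr1d1 differed by 0.11 (95% interval -0.03 to 0.25), Dbp by -0.03 (-0.20 to 0.14), Cry2 by -0.08 (-0.22 to 0.06) and Bhlhe40 by 0.08 (-0.01 to 0.16). Over the 15 probe sets the differences ran from -0.24 to 0.19, with interval ends from -0.68 to 0.46. These intervals bound how far the ligands could differ and do not show that they act alike. Arrays of the ligands did not overlap for 4 of 15 clock probe sets (25.9% of all probe sets). The fat cell markers Fabp4 and Lpl did differ in the same pair, higher with rosiglitazone by 0.71 and 0.58.

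Set directly against S273A cells, the ligand-treated wild-type cells differed in Cry2 and Bhlhe40, the genes that fell with S273A. With rosiglitazone 3 of 15 probe sets were called (Cry2 and Bhlhe40 higher, the brighter Nr1d2 probe set lower, though not the mean of both), beside 8.67% of all probe sets, 5.34% higher and 3.33% lower. With MRL24 2 were called, both higher (Cry2 and Bhlhe40), beside 10.1% in either direction and 6.87% higher. Arrays did not overlap for 3 and 7 of the 15, against 28.3% and 33.6%. Nr1d1 differed from S273A cells by -0.03 with rosiglitazone and by -0.14 with MRL24 (adjusted p = 0.847 and 0.188). These comparisons differ in receptor form, cell population and ligand at once. They also share the S273A arrays with S273A against wild-type, so they are not a separate test of the falls of Cry2 and Bhlhe40. The Pparg probe set was lower than in S273A cells, with differences of -0.35 for rosiglitazone and -0.33 for MRL24 (limma adjusted p = 0.0394 and 0.0495). Both calls lie near the threshold and were not followed through the alternatives. The cells carry an introduced receptor, and whether this probe set reads it was not analysed. S273A minus untreated wild-type gave 0.24 for Pparg (adjusted p = 0.170).

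The genes around these repressors were counted by the brightest probe set of each, and calls on their other probe sets are given beside them. Of 7 clock activators and ROR receptors 4 were tested, and Clock was the only one called against wild-type by its brightest probe set. A second probe set of Rora, a receptor that activates Arntl, was higher with S273A by 0.28 (adjusted p = 0.0307), while its brightest and its other one gave no call. Clock, the partner of BMAL1, read 329 ± 36.6 in wild-type cells (n = 3), 360 ± 20.2 in S273A cells, 441 ± 30.2 with rosiglitazone and 451 ± 15.5 with MRL24. It rose with rosiglitazone by 0.41 (SE 0.09, adjusted p = 0.00779) and with MRL24 by 0.44 (SE 0.09, adjusted p = 0.0084), in all 23 alternatives run for it, while a second Clock probe set differed by -0.08 and 0.18 and gave no call. Arntl, the gene that the REV-ERB receptors repress, read 608 ± 34.6 in wild-type, 576 ± 24.8 in S273A, 549 ± 14.8 with rosiglitazone and 593 ± 19.9 with MRL24. Its differences of -0.07, -0.14 and -0.03 did not pass (adjusted p = 0.567, 0.209 and 0.802).

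Of the relatives of the members (Bhlhe41, Nfil3, Hlf and Timeless tested), the PAR bZIP gene Hlf rose with MRL24, from 282 ± 26.9 to 379 ± 39.8 (0.40, SE 0.10, adjusted p = 0.0241). That call was lost in 5 of 23 alternatives (adjusted p up to 0.122), among them without wild-type replicate 2 and without MRL24 replicate 2 or 3. By the brightest probe sets, none of the 6 tested clock kinases and ubiquitin ligases was called with S273A or MRL24. Of all probe sets tested on the array, 7.71%, 9.24% and 8.44% were called with S273A, rosiglitazone and MRL24. Over all 18 tested probe sets of the kinases and ligases, 1 was higher and 2 lower with S273A. With rosiglitazone 1 was higher and 3 lower, and with MRL24 1 was higher. The lower ones with S273A were both of Csnk1d, a kinase of PER proteins (-0.28 and -0.29, adjusted p = 0.00829 and 0.0103). Fbxw11, a ubiquitin ligase subunit for PER proteins, gave calls in both directions. Its brightest probe set fell by 0.19 with rosiglitazone (adjusted p = 0.0460), a call kept in 9 of 23 alternatives (adjusted p up to 0.178). Another Fbxw11 probe set rose with rosiglitazone by 0.30, with S273A by 0.32 and with MRL24 by 0.38 (adjusted p = 0.0245, 0.0198 and 0.00994). Among 7 clock-controlled output genes, Nampt, the rate-limiting enzyme of NAD salvage and an E-box target, rose with S273A by 0.22 (SE 0.05, adjusted p = 0.00896), kept in 22 of 23 alternatives. Its rise with MRL24 (0.15, adjusted p = 0.0497) was kept in 5 (adjusted p up to 0.147). A second Nampt probe set differed by 0.06 with S273A and 0.03 with MRL24 (adjusted p = 0.576 and 0.773). In the same list a dimmer probe set of Dnajb1, a heat shock co-chaperone, fell with S273A by 0.49 (adjusted p = 0.00272), and the brightest differed by 0.10 (adjusted p = 0.305).

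**Figure D3:**
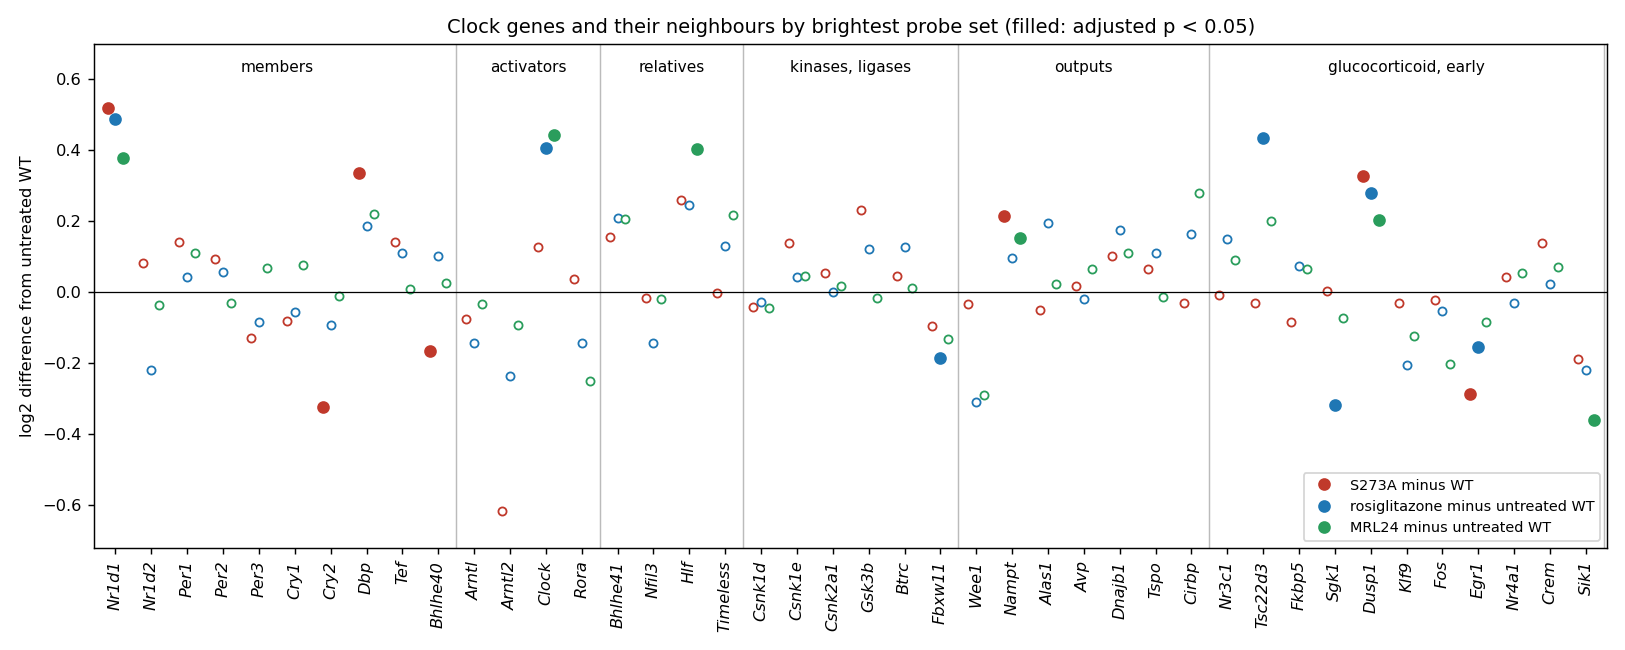
Log2 difference from wild-type cells (y axis, log2(intensity + 16) scale) of the members and of the clock-related lists, by the brightest probe set of each tested gene, for S273A (red), rosiglitazone (blue) and MRL24 (green). Filled points passed adjusted p under 0.05. Nr1d1 and Dusp1 are filled and above 0 in all 3 colours, and Clock in the 2 ligand colours.

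Glucocorticoid and immediate-early genes, whose signals also reach Per1 and Per2, were read because they can shift clock genes outside a rhythm. Of 11 tested by their brightest probe set, 1 rose and 1 fell with S273A, 2 rose and 2 fell with rosiglitazone, and 1 rose and 1 fell with MRL24. Over all 22 tested probe sets, 5 rose and 4 fell with S273A, 3 and 3 with rosiglitazone, and 2 and 1 with MRL24. Of all probe sets tested on the array, 7.71%, 9.24% and 8.44% were called in these comparisons. Several of the 22 belong to the same gene, so their calls are not independent. Dusp1, a phosphatase of MAP kinases, rose by 0.33 with S273A, 0.28 with rosiglitazone and 0.20 with MRL24 (adjusted p = 0.000222, 0.000567 and 0.0116). The call with MRL24 was lost without MRL24 replicate 3 and without the trend in the variance prior (adjusted p up to 0.0662). Egr1, an immediate-early transcription factor, fell by 0.29 with S273A (adjusted p = 0.00114), in all 23 alternatives, and by 0.16 with rosiglitazone (adjusted p = 0.0436), in 11 of 23 (adjusted p up to 0.128). Sgk1, a glucocorticoid-induced kinase, fell by 0.32 with rosiglitazone (adjusted p = 0.00110) and Sik1, a salt-inducible kinase, by 0.36 with MRL24 (adjusted p = 0.0332, kept in 15 of 23 alternatives). The brightest probe set of Tsc22d3, a glucocorticoid-induced leucine zipper gene, rose by 0.44 with rosiglitazone (adjusted p = 0.000486), and its other probe sets did not, but these both rose by 0.36 with S273A (adjusted p = 0.0158 and 0.0313). Probe sets of Nr3c1, the glucocorticoid receptor, disagreed. One rose with S273A, rosiglitazone and MRL24 by 0.34, 0.53 and 0.63 (adjusted p = 0.0205, 0.000638 and 0.000862), another fell with S273A by 0.29 (adjusted p = 0.0165), and the brightest gave no call. Probe sets of Klf9, a glucocorticoid-induced repressor, gave calls in both directions with S273A (0.39, -0.35 and -0.43). Per1 and Per2 were not called beside any of these changes.

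Across the 12 arrays the tested genes with the profile most like that of Nr1d1 were Ncoa4 (Pearson r = 0.95, Spearman rho = 0.90), Rnf144a (0.94 and 0.88), Txnip (0.94 and 0.90), Col4a1 (0.94 and 0.87) and Foxk1 (0.93 and 0.97). The profiles most like that of Dbp were those of Ndufv1 (0.89 and 0.79), Aopep (0.89 and 0.85), Rnf144a (0.88 and 0.84), Cyp2f2 (0.88 and 0.73) and Il13 (0.87 and 0.88). They are the top 5 of 9153 genes in each case and describe these arrays only, since the 12 points are 4 groups of 3 that share the group differences and the outlying array. Each was picked by 1 probe set. Other tested probe sets of the genes like Nr1d1 gave r from 0.56 (Foxk1) to 0.94 (Txnip). Those of the genes like Dbp gave -0.20 (Aopep), 0.52 and 0.40 (Ndufv1) and 0.68 (Rnf144a).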

How the data were processed

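Total RNA was labelled with biotin and hybridised to Affymetrix-type arrays. The authors deposited 1 linear intensity per probe set and array, with a floor near 1. Their normalization is not given in the sources read here. Depth does not apply to arrays, and the number of arrays limits the precision. Of 22690 probe sets, 64 were controls, and symbols came from the platform annotation (20380 probe sets with 1 symbol, 691 with several, 1555 with none). The fit kept the 15838 probe sets with a mean at or above the 30th percentile (intensity 101), on a log2(intensity + 16) scale that understates folds of dim probe sets. All 12 arrays were fitted as 4 group means with limma 3.58.1 (lmFit, eBayes with trend, 8 residual degrees of freedom) in R 4.3.3, for 6 comparisons. A call is a Benjamini-Hochberg adjusted p under 0.05 over all probe sets tested; an exact test of 3 against 3 arrays cannot go below 0.1. Figures used matplotlib 3.10.9 in python 3.11.15. The procedure was tested on simulated data.

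The 10 members and the clock, glucocorticoid and marker lists were chosen with earlier results of these data known. All member probe sets are described. Up to 4 called genes of each list, by adjusted p, and the 5 genes most correlated with Nr1d1 and with Dbp were to be named. Alternatives were pseudocounts of 1 and 64, no filter or the 50th percentile, quantile or median scaling, single arrays left out, the 2 groups alone, a replicate block, array weights, no trend, and 1 value per gene (brightest or mean). Same-numbered arrays of different groups did not deviate together (correlations of -0.12 to 0.12 over 18 pairs).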

Additional observations from a re-analysis of the deposited data

How the results depend on the processing

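The number of clock probe sets called was 4 with S273A, 1 with rosiglitazone, 2 with MRL24, 0 between the ligands, and 3 and 2 for rosiglitazone and MRL24 against S273A. With MRL24 it was 1 with no filter, with the 50th percentile filter, in a fit to the 2 groups alone and by the brightest probe set per gene, and 3 with array weights. With rosiglitazone it was 2 with the 50th percentile filter and with the same median, and with S273A it was 1 in a fit to the 2 groups alone, 3 without the trend and 5 for the mean of a gene's probe sets. Against S273A it was 2 for rosiglitazone with quantile normalization, the same median and the mean of probe sets, and 3 for MRL24 with quantile normalization and the same median. Leaving out single arrays gave 2 to 5, 1 to 3, 1 to 2, 0 to 0, 1 to 3 and 1 to 2. With a replicate block the counts were 4, 1, 2, 0, 3 and 2, and none of 96 values changed its call; the replicate numbers did not pair the arrays. None of the 12 called values changed sign. Of 78 uncalled values, 34 took both signs over the alternatives, and 1 of these was called with its sign reversed. It was the brighter Nr1d2 probe set with MRL24, at 0.45 (limma adjusted p = 0.0232) for the mean of both Nr1d2 probe sets. With rosiglitazone the brighter Nr1d2 probe set was called in 3 alternatives, each time lower. Its positive value with rosiglitazone (0.23, limma adjusted p = 0.175) was likewise that of the mean of both Nr1d2 probe sets. The alternatives of a probe set include that mean, so such a value does not show that the probe set itself changed direction. The cause of the other changes was not tested. Over all probe sets the counts moved more: 1221 with S273A (415 to 1283), 1463 with rosiglitazone (734 to 1611), 1336 with MRL24 (322 to 1784), 356 between the ligands (160 to 1105), and 1373 (829 to 1988) and 1607 (654 to 2647) for rosiglitazone and MRL24 against S273A. The share of calls that were higher moved with scaling: with MRL24 it was 68.3%, 55.7% after quantile normalization and 43.1% with the same median. The same shares were 56.5%, 60.5% and 68.3% between the ligands, 61.5%, 51.8% and 49.3% for rosiglitazone against S273A, and 67.7%, 49.4% and 41.6% for MRL24 against S273A.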
